A study of Homo sapiens with 37 samples.

Results

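The genes described here are members of the hypoxia-inducible factor (HIF) pathway and a few of its transcriptional targets in K562, an established human erythroleukemia cell line. The members were taken by symbol from a fixed list of 10 genes, glycolytic genes being left out, and 9 of the 10 had a row among the 32055 genes of the count table: HIF1A, ARNT, HIF1AN, VHL, EGLN1, EGLN3, BNIP3, BNIP3L and NDRG1. EGLN2 had no row and was not analysed here. ZBTB7A, a zinc finger transcription factor, was disrupted by electroporating a Cas9 vector that carried 1 of 2 guides, and the empty vector served as control. GFP-positive cells were sorted singly and expanded. RNA of 26 libraries labelled KO and 11 libraries labelled control was measured by bulk SCRB-seq, which reads the 3′ end of polyadenylated transcripts and counts each captured molecule once by its unique molecular identifier (UMI). Neither the labels nor the methods name a hypoxic treatment, an oxygen level, or the clone, gRNA or day behind a library.

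HIF is a dimer of an alpha subunit, such as that encoded by HIF1A, and the constitutive beta subunit encoded by ARNT. In oxygenated cells prolyl hydroxylases of the EGLN family mark the alpha subunit, the VHL ubiquitin ligase recognises the mark and the protein is degraded, while HIF1AN hydroxylates an asparagine and blocks coactivator binding. Most of this control acts on protein, which transcript counts do not show. In low oxygen the dimer activates genes such as BNIP3, BNIP3L, NDRG1 and EGLN3, and in the erythroid lineage BNIP3L is known for the removal of mitochondria from maturing red cells.

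Libraries are named by their barcode. Total counts ranged from 1070250 to 4270901 UMIs in the KO and from 563235 to 4710809 in the control libraries, and 10661 genes passed the filter on low counts. All 9 members were among them. Levels are given as log2 CPM (library-size scaled counts, with TMM factors and a prior count of 2). A gene is said to have passed when its adjusted p was below 0.05 in edgeR's quasi-likelihood test with Benjamini-Hochberg adjustment over all genes tested, and is called when its absolute log2 fold change also exceeded 0.5. ZBTB7A itself was at 62 to 314 UMIs in the KO and 21 to 296 in the control libraries, with a log2 fold change of 0.12 (adjusted p = 0.331), and its 3′ counts do not check the edit. The KO-labelled library GGCCAC had the lowest KO level of BNIP3L, NDRG1, ANGPTL4, GABARAPL1, SQSTM1 and FUNDC2 and the highest of STC2, EPAS1 and ERO1A, and for these genes the log2 fold change without it is given as well. Over 5665 genes outside the lists used here, the 26 KO libraries fell into 5 sets of 6, 6, 5, 4 and 4 libraries plus GGCCAC alone, with correlations of 0.447 to 0.779 inside a set and at most 0.28 between sets. If the libraries of a set were repeats of 1 clone, the p-values and standard errors below would be too small and the intervals too narrow. The reason is that every library was counted as a separate sample. The erythroid markers were present in every library, with a summed level of 4200 to 9110 CPM over 13 genes in the control and 3010 to 9790 CPM in the KO libraries. Of 12 tested erythroid markers 2 passed as higher and 3 as lower in KO, beside 17.7% and 16.2% of all genes tested. Markers of other lineages were low, with summed levels in control and KO libraries of 0.767 to 8.24 and 2.69 to 60.3 CPM for 5 megakaryocyte, 4.07 to 13.3 and 6.28 to 18.4 CPM for 6 myeloid, and 16.5 to 73.6 and 1.40 to 30.3 CPM for 6 lymphoid markers. The single tested marker of the megakaryocyte and of the myeloid list was higher and that of the lymphoid list lower in KO, and their part in the results below was not tested. In bulk RNA, fewer cells of a type and less RNA per cell cannot be told apart.

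Among the HIF pathway members, BNIP3L and NDRG1 were called, both higher in KO. HIF1A and HIF1AN also rose, by less than the fold change threshold. ARNT, VHL, EGLN1, EGLN3 and BNIP3 did not pass. Thus 4 of the 9 members passed, against 33.8% of all genes tested, and 2 were called, against 10.2%. The median log2 fold change of the members was 0.21, beside -0.0046 over all genes tested.

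**Figure D1:**
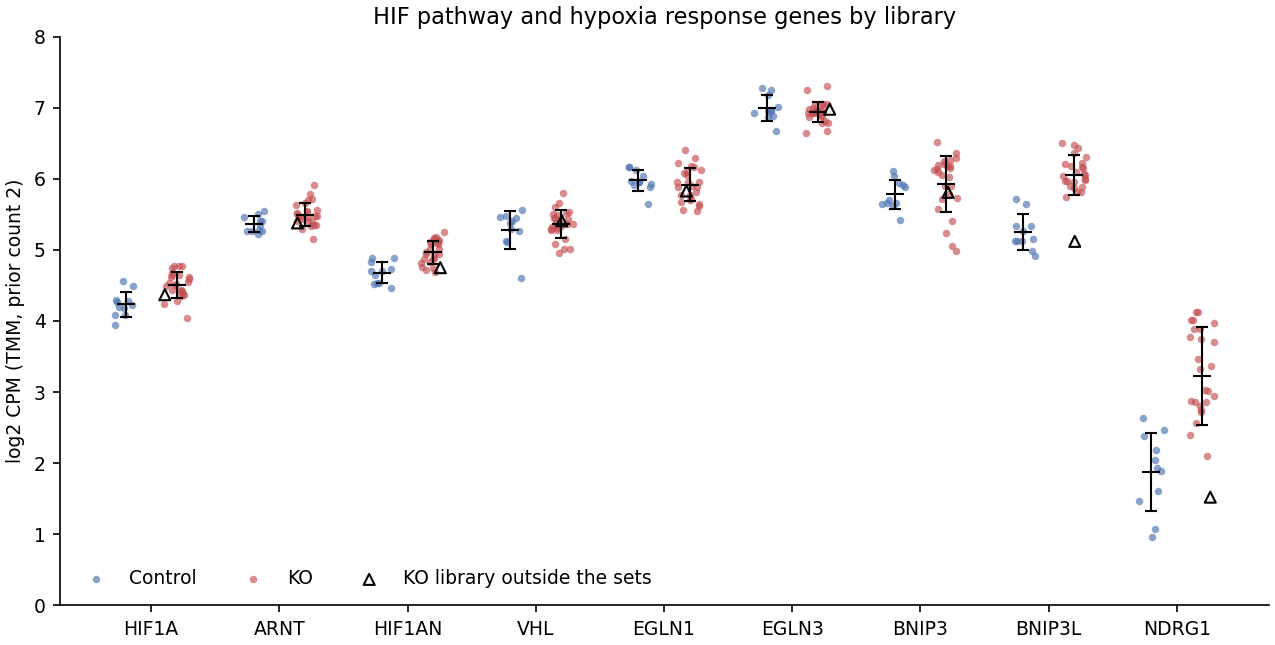
Level of the 9 members in each library, in log2 CPM, for 11 control and 26 KO libraries; points are libraries, the bar is the mean and SD of the group, and the triangle marks the KO-labelled library GGCCAC. For BNIP3L the KO points other than GGCCAC lie above the highest control at 5.72, while for EGLN3 both groups lie between 6.65 and 7.30.

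HIF1A (ENSG00000100644, chromosome 14, 61695513 to 61748259, plus strand, GRCh38) encodes the oxygen-labile alpha subunit. Its lowest, median and highest levels were 3.94, 4.22 and 4.56 log2 CPM in the control libraries and 4.04, 4.51 and 4.78 in the KO libraries. The groups overlapped, with 10 KO libraries above the highest control, TTGAAA. In 17.7% of all genes tested at least as many KO libraries lay above the highest control. HIF1A rose by 0.27 on the log2 scale (standard error, SE, of 0.07, adjusted p = 0.00426 by edgeR), from 4.23 ± 0.18 (SD, n = 11) to 4.51 ± 0.18 (SD, n = 26). It rested on 9 to 99 UMIs per control and 26 to 100 per KO library. The last exon of HIF1A is overlapped on the same strand by a long noncoding gene, ENSG00000258964, with 101 UMIs over all libraries, and the authors' counting could split reads between them. Libraries with AT-rich barcodes numbered 12 KO and 8 control, and those with GC-rich barcodes 12 KO and 1 control. Mixed barcodes were in 2 KO and 2 control libraries. Barcode composition was thus uneven between the groups and cannot be fully told apart from the label. Every fit on AT-rich barcodes alone also has less power. In that fit the log2 fold change of HIF1A was 0.21 and no longer passed (edgeR adjusted p = 0.0871). Nor did HIF1A pass without a filter on low counts (0.25, edgeR adjusted p = 0.0516) or with libraries thinned to the smallest total (0.37, edgeR adjusted p = 0.0810).

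The other alpha subunit genes were lower or hardly detected. EPAS1, which encodes HIF-2 alpha, fell by 0.39 on the log2 scale (SE 0.14, edgeR adjusted p = 0.0237). Its control levels ran from 3.66 to 5.18 and its KO levels from 3.36 to 4.72, where the highest KO library was GGCCAC, and without GGCCAC the log2 fold change was -0.43. The fall depended on the control library ATATAG, the highest of all 37, without which the log2 fold change was -0.24 with an edgeR adjusted p of 0.155. HIF3A was under the count filter with 89 UMIs over all libraries.

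ARNT (ENSG00000143437, chromosome 1, 150809713 to 150876708, minus strand), the partner of the alpha subunits, had a lowest, median and highest level of 5.22, 5.35 and 5.55 in control and 5.15, 5.48 and 5.92 log2 CPM in KO libraries. The ranges overlapped widely, with 7 KO libraries above and 1 below all controls. At least 10 lay above all controls in 17.7% of all genes tested. ARNT did not pass at 0.13 on the log2 scale (SE 0.06, edgeR adjusted p = 0.0924), but did without the control library TTAATC (0.15, edgeR adjusted p = 0.0498) or the KO library TTATTG (0.15, edgeR adjusted p = 0.0438). The paralog ARNT2 was nearly undetected, with 11 UMIs over all 37 libraries.

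HIF1AN (ENSG00000166135, chromosome 10, 100529072 to 100559998, plus strand) encodes the asparaginyl hydroxylase that restrains HIF. Control libraries had a lowest, median and highest level of 4.47, 4.71 and 4.89 log2 CPM, and KO libraries of 4.69, 4.96 and 5.25. No KO library fell below the lowest control, and 16 lay above the highest, which 7.07% of all genes tested matched or exceeded. The log2 fold change was 0.30 (SE 0.06, edgeR adjusted p = 3.23e-04) and stayed between 0.29 and 0.34 with each library left out in turn. HIF1A, an activating subunit, and HIF1AN, a restraining hydroxylase, thus both rose in KO.

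VHL (ENSG00000134086, chromosome 3, 10141778 to 10153667, plus strand) encodes the substrate receptor of the ubiquitin ligase. It was at 4.598, 5.38 and 5.56 in control libraries (lowest, median and highest) and at 4.96, 5.38 and 5.80 log2 CPM in KO libraries. The lowest value came from the shallowest library, GTTTAT, with 13 UMIs. The log2 fold change of 0.05 had an approximate 95% interval of -0.10 to 0.19 and an edgeR adjusted p of 0.659.

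The prolyl hydroxylase EGLN3 (ENSG00000129521, chromosome 14, 33924227 to 34462774, minus strand) was the most abundant member, and UMI counts of 3′ ends do not scale with transcript length. Its lowest, median and highest levels were 6.68, 6.96 and 7.28 in control and 6.65, 6.95 and 7.30 log2 CPM in KO libraries. EGLN1 (ENSG00000135766, chromosome 1, 231363751 to 231422287, minus strand), the main oxygen sensor in most cells, was at 5.65, 5.96 and 6.17 and at 5.55, 5.89 and 6.41. The groups covered nearly the same range for both genes. Log2 fold changes were -0.06 for EGLN3 (95% interval -0.17 to 0.05, edgeR adjusted p = 0.456) and -0.04 for EGLN1 (95% interval -0.18 to 0.11, edgeR adjusted p = 0.754). A change of more than 0.19 in either direction thus lay outside these intervals for VHL, EGLN1 and EGLN3. The intervals count every library as a separate sample and would be too narrow if the libraries of a set were repeats of 1 clone. They therefore do not exclude such a change. Both EGLN1 and EGLN3 are also known HIF targets.

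In the control libraries the mean levels followed the order EGLN3 at 6.998, EGLN1 at 5.98, BNIP3 at 5.78, ARNT at 5.36, VHL at 5.28, BNIP3L at 5.25, HIF1AN at 4.68, HIF1A at 4.23 and NDRG1 at 1.87 log2 CPM. ARNT, VHL and BNIP3L differed from each other by less than the SDs of VHL and BNIP3L, 0.27 and 0.25, and EGLN1 and BNIP3 by less than the SD of BNIP3, 0.21. In the KO libraries BNIP3L stood at 6.05, above EGLN1 at 5.92 and BNIP3 at 5.93, with differences smaller than the SDs of 0.23 to 0.40.

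HIF binds the core of the hypoxia response element, ACGTG or GCGTG. This core was searched on both strands, overlaps counted, in the 250 bases upstream of RefSeq transcript starts (GRCh38.p14). Of the 9 members, 6 had an entry, and VHL, BNIP3L and NDRG1 had none. BNIP3 had 6 matches, HIF1A and EGLN1 1 each in their best window, and HIF1AN, ARNT and EGLN3 none. Of all 35116 windows 43.2% held at least 1 match and 0.646% held 6 or more. The stretches with the matches are shown for these 3 members, and for PLOD2 as a called gene of the response list that is described below, with the core in capitals and on the strand of the gene.
BNIP3, chr10:131982014-131982073, minus strand: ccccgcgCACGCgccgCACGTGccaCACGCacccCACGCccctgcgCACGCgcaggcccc
EGLN1, chr1:231422288-231422347, minus strand: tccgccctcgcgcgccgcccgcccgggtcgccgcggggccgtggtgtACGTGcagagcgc
HIF1A, chr14:61695283-61695342, plus strand: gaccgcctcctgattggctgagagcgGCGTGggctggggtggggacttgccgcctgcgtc
PLOD2, chr3:146161325-146161404, minus strand: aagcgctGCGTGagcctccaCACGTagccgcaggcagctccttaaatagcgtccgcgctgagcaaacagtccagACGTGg
In BNIP3 the central matches overlap as CACGTG, which reads the same on both strands. The windows of STC2 and DDIT4, called lower in KO, held 3 matches each, as did that of PLOD2, called higher. A match is a description of letters and not evidence of binding in these cells.

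BNIP3 (ENSG00000176171, chromosome 10, 131967684 to 131981967, minus strand) and its paralog BNIP3L, also called NIX, encode outer mitochondrial membrane proteins that recruit autophagosomes to mitochondria. BNIP3 was at 5.42, 5.70 and 6.11 log2 CPM in control libraries (lowest, median and highest) and at 4.99, 6.07 and 6.52 in KO libraries. KO libraries spread to both sides of the controls, 12 above the highest and 4 below the lowest. At least 12 KO libraries lay above the highest control in 13.4% of all genes tested. The log2 fold change was 0.21 (SE 0.11, edgeR adjusted p = 0.159). Among AT-rich barcodes alone it was 0.36 and passed (edgeR adjusted p = 0.0107), and with surrogate variables as covariates it was 0.16 and passed (edgeR adjusted p = 0.0113).

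BNIP3L (ENSG00000104765, chromosome 8, 26383054 to 26505636, plus strand) rose in nearly every KO library. Its lowest, median and highest levels were 4.91, 5.15 and 5.72 in control and 5.12, 6.05 and 6.50 log2 CPM in KO libraries. The lowest KO value was that of GGCCAC, with 65 UMIs, and the other 25 KO libraries lay above the highest control, ATATAG. As many KO libraries lay above all controls in 0.882% of the genes tested. BNIP3L went from 5.25 ± 0.25 (SD, n = 11) to 6.05 ± 0.28 (SD, n = 26), a log2 fold change of 0.81 (SE 0.10, edgeR adjusted p = 1.62e-08), or 1.755-fold. It was 0.84 without GGCCAC.

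Within a library the balance of the paralogs differed. In 9 of 11 control libraries BNIP3L had fewer UMIs than BNIP3, with a ratio of BNIP3L to BNIP3 UMIs of 0.471 to 1.24 and a median of 0.686. In KO libraries the ratio ran from 0.613, in GGCCAC, to 2.85, in CCCACG, with a median of 0.978, and BNIP3L exceeded BNIP3 in 10 of 26. The 4 KO libraries with the least BNIP3 were also the 4 with the most BNIP3L. They had 4.99 to 5.41 log2 CPM of BNIP3 against 5.58 to 6.52 in the other 22, and 6.37 to 6.50 of BNIP3L against at most 6.31. These 4 libraries form one of the sets found over other genes, with correlations of 0.553 to 0.663 among them, so that they are not 4 separate observations of this pattern. None of the 4 has an AT-rich barcode, and the part of barcode composition in the pattern was not tested.

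**Figure D2:**
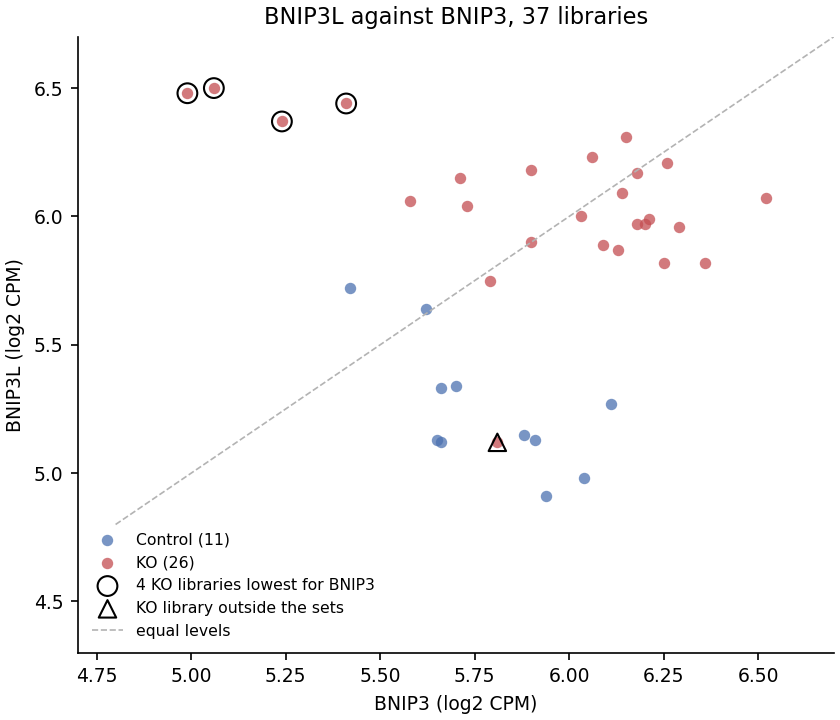
BNIP3L against BNIP3 in each of the 37 libraries, both in log2 CPM; circles mark the 4 KO libraries with the least BNIP3, the triangle GGCCAC, and the dashed line equal levels. The 4 circled libraries stand at 4.99 to 5.41 for BNIP3 and 6.37 to 6.50 for BNIP3L, apart from the other 22 KO libraries.

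NDRG1 (ENSG00000104419, chromosome 8, 133237175 to 133302022, minus strand) encodes a cytoplasmic protein induced by hypoxia and linked to differentiation and growth arrest. It was the least abundant member and had the largest fold change among them. Control libraries held 2 to 13 UMIs with a median of 9, and KO libraries 4 to 40 with a median of 20. In log2 CPM the lowest, median and highest levels were 0.96, 1.93 and 2.63 in control and 1.52, 3.17 and 4.13 in KO libraries. The lowest KO library was again GGCCAC, and the highest control was the shallowest library, GTTTAT, at 3 UMIs. KO libraries above the highest control numbered 22, which 2.2% of all genes tested matched or exceeded.
The log2 fold change of NDRG1 was 1.63 (SE 0.26, edgeR adjusted p = 4.72e-06), or 3.09-fold, and 1.67 without GGCCAC. The median KO library held more NDRG1 UMIs than any control, although its total was lower (medians of 2030965 and 3518944 UMIs). The KO libraries were uneven: those of one set of 6 lay between 3.75 and 4.13, and those of the other set of 6 between 2.10 and 2.86 log2 CPM.

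**Figure D3:**
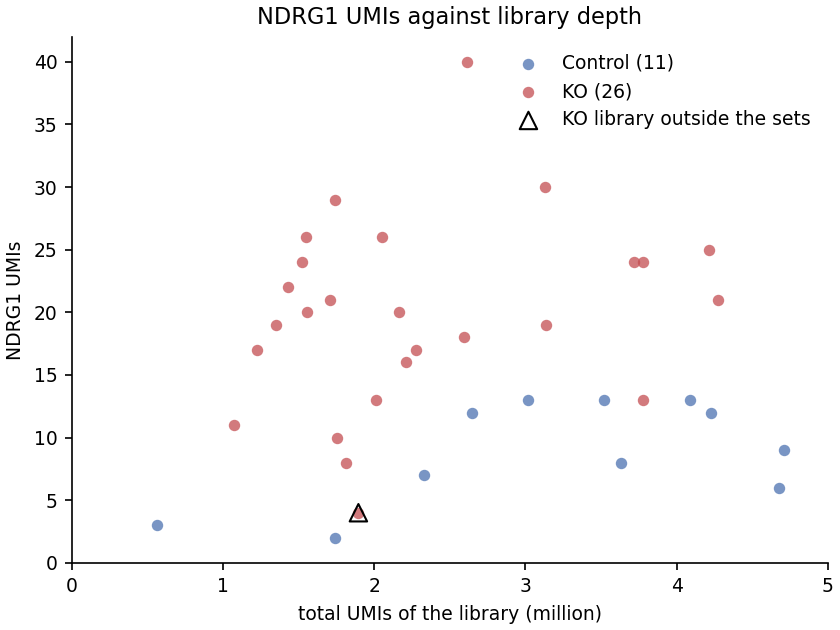
NDRG1 UMIs of each library against its total UMIs, for 11 control and 26 KO libraries; the triangle marks GGCCAC. No control library exceeds 13 UMIs at any depth, while KO libraries reach 40.

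For each member that passed, the genes most like it over the 26 KO libraries were sought among 8605 genes whose mean level reached 10 CPM. For NDRG1 they were CD63, MAGED2 and C12orf57, with Pearson correlations of 0.884, 0.880 and 0.877 and Spearman correlations of 0.850, 0.884 and 0.857. For BNIP3L they were PTPRG, STARD3NL and GAD1, at Pearson 0.766, 0.765 and 0.754 and Spearman 0.533, 0.665 and 0.566. HIF1AN was most like DDRGK1, JMJD8 and DMAP1 (Pearson 0.746, 0.687 and 0.607), and HIF1A most like INTS6, DAGLB and CMTR2 (0.671, 0.644 and 0.638). The likeness was ranked over many genes in libraries that fall into sets, and is a description.

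A longer list of hypoxia response genes without glycolytic enzymes was also described, which includes the members BNIP3, BNIP3L, NDRG1, EGLN1 and EGLN3. Of its 49 genes 35 were tested and 16 passed (45.7% against 33.8% of all genes tested), 11 higher and 5 lower in KO. Of all genes tested 17.7% passed as higher and 16.2% as lower. Called were 8, of which 6 were higher, beside 6.65% of all genes called higher and 3.53% called lower. The median log2 fold change was 0.03, and 19 genes did not pass. The list therefore held large changes in both directions.

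The called rises beside BNIP3L and NDRG1 included ANGPTL4, RRAGD and PLOD2. ANGPTL4, an inhibitor of lipoprotein lipase, had 2 to 18 and 4 to 46 UMIs and a log2 fold change of 1.27 (SE 0.25, edgeR adjusted p = 9.43e-05), or 1.31 without GGCCAC. RRAGD, a Rag GTPase of amino acid signaling to mTORC1, stood at 2.83 to 4.09 log2 CPM in control and 3.25 to 5.65 in KO libraries, with a log2 fold change of 1.26 (SE 0.18, edgeR adjusted p = 1e-06). PLOD2, the collagen lysyl hydroxylase, rose by 0.65 on the log2 scale (SE 0.09, edgeR adjusted p = 1.63e-07). Its level exceeded every control in 22 KO libraries. That count or a higher one was found for 2.2% of all genes tested. Smaller rises passed in KLF10, YEATS2 and KDM3A, at log2 fold changes of 0.32, 0.31 and 0.25. Without the control library AAAGTT KLF10 did not pass (0.30, edgeR adjusted p = 0.0519). Among AT-rich barcodes alone neither KLF10 (0.254, edgeR adjusted p = 0.115) nor KDM3A (0.165, edgeR adjusted p = 0.175) passed.

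The called falls were in STC2 and DDIT4. STC2, a secreted glycoprotein, was at 3.60, 4.44 and 4.94 log2 CPM in control libraries (lowest, median and highest) and at 0.44, 1.98 and 4.40 in KO libraries. The highest KO value was that of GGCCAC, and the other 25 KO libraries lay below the lowest control, which 0.694% of all genes tested matched or exceeded. STC2 fell by 2.24 on the log2 scale (SE 0.28, edgeR adjusted p = 9.73e-08), and its log2 fold change was -2.44 without GGCCAC. DDIT4, which restrains mTORC1, fell by 0.98 (SE 0.24, edgeR adjusted p = 0.002), but its control libraries alone spanned 4.66 to 7.12 and the KO libraries 4.23 to 6.47. ERO1A, BHLHE40 and FAM162A had smaller falls, of 0.41, 0.36 and 0.20 on the log2 scale, and the log2 fold change of ERO1A was -0.43 without GGCCAC. Without the control library AAAGTT neither BHLHE40 (-0.33, edgeR adjusted p = 0.0514) nor FAM162A (-0.17, edgeR adjusted p = 0.0508) passed, and BHLHE40 did not without the control library TTAATC (-0.32, edgeR adjusted p = 0.0508). FAM162A also did not pass with barcode class as a covariate (-0.15, edgeR adjusted p = 0.0916) or among AT-rich barcodes alone (-0.13, edgeR adjusted p = 0.184). VEGFA, the angiogenic factor, is named here after its values were seen: its log2 fold change of -0.32 did not pass (edgeR adjusted p = 0.0542). It passed in 5 of the 12 processing alternatives. Among these were DESeq2 (-0.32, DESeq2 adjusted p = 0.0454), barcode class as a covariate (-0.41, edgeR adjusted p = 0.0243) and AT-rich barcodes alone (-0.59, edgeR adjusted p = 0.00992). VEGFA also passed when any 1 of 9 single libraries was left out.

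**Figure D4:**
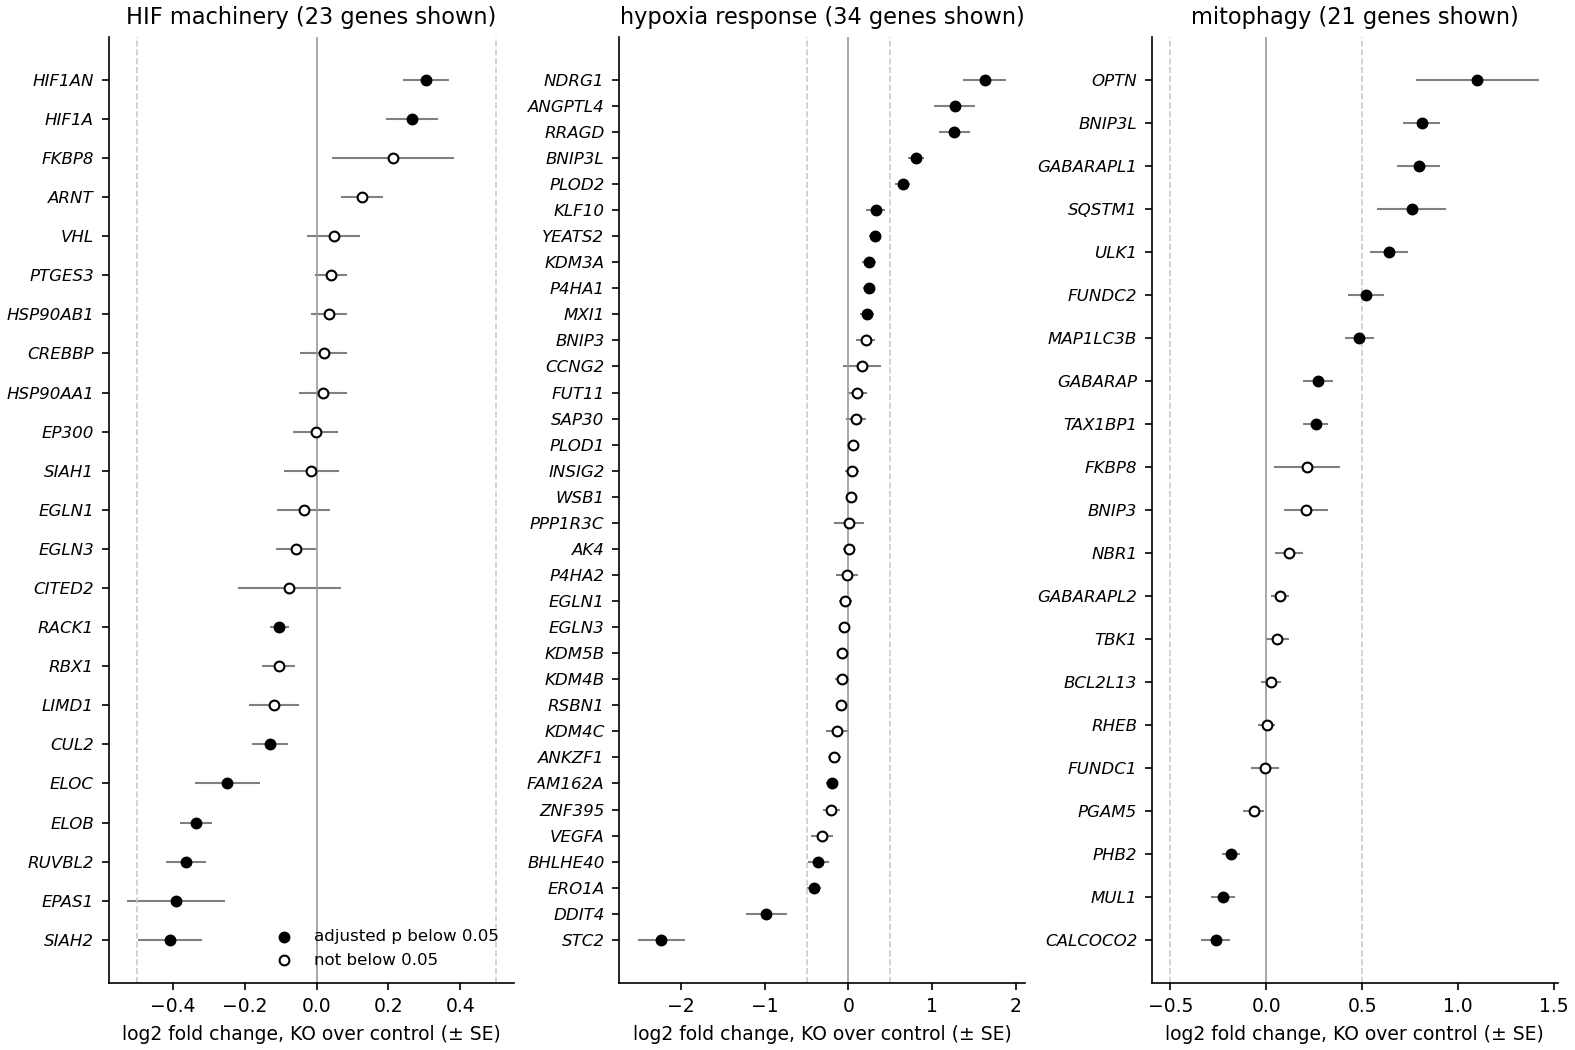
Log2 fold change of KO over control for the tested genes of the HIF machinery, hypoxia response and mitophagy lists; bars are standard errors, filled points have an edgeR adjusted p below 0.05, and dashed lines mark 0.5 in either direction. The machinery genes stay within the dashed lines, while the response list runs from -2.24 for STC2 to 1.63 for NDRG1. The horizontal scales differ between the panels.

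Since BNIP3L is a mitophagy receptor, a list of 24 genes of receptor-mediated and ubiquitin-dependent mitophagy was described as well. Of 21 tested genes 12 passed, or 57.1% against 33.8% of all genes tested, 9 of them higher (17.7% of all genes passed as higher). The 6 called genes, 28.6% of those tested against 10.2% of all genes, were all higher in KO (6.65% of all genes were called higher) and included BNIP3L. The median log2 fold change was 0.21 with, and 0.12 without, BNIP3 and BNIP3L.
GABARAPL1, an LC3 family protein of the autophagosome, rose by 0.79 on the log2 scale (SE 0.11, edgeR adjusted p = 4.88e-07). ULK1, the kinase that starts autophagy, rose by 0.64 (SE 0.10, edgeR adjusted p = 4.04e-06). Both genes exceeded every control in 23 KO libraries. Counts of 22 or more such libraries were found for 2.2% of all genes tested. SQSTM1, the cargo adaptor p62, rose by 0.76 (SE 0.18, edgeR adjusted p = 0.00129), and FUNDC2 by 0.52 (SE 0.09, edgeR adjusted p = 2.96e-05). GGCCAC was the lowest KO library for GABARAPL1, SQSTM1 and FUNDC2, and without it their log2 fold changes were 0.82, 0.78 and 0.55. OPTN, another cargo adaptor, had a log2 fold change of 1.10 (SE 0.32, edgeR adjusted p = 0.00771) with KO libraries on both sides of the controls, 15 above and 2 below. At least 12 KO libraries lay above the highest control in 13.4% of all genes tested. OPTN did not pass in limma-voom without (0.70, adjusted p = 0.0868) or with quality weights (0.65, adjusted p = 0.0712), nor among AT-rich barcodes alone (0.70, edgeR adjusted p = 0.104). MAP1LC3B, GABARAP and TAX1BP1 rose by 0.49, 0.27 and 0.26. CALCOCO2, MUL1 and PHB2 fell by 0.26, 0.23 and 0.18 on the log2 scale, of which MUL1 did not pass among AT-rich barcodes alone (-0.14, edgeR adjusted p = 0.160).

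The HIF machinery list, which holds the sensing members together with partners, coactivators and chaperones, had 31 genes. Of its 23 tested genes 9 passed, or 39.1% against 33.8%, and none was called. HIF1A and HIF1AN were the 2 that rose, and 7 fell, where 17.7% of all genes tested passed as higher and 16.2% as lower in KO. The largest falls were in SIAH2, a ubiquitin ligase for prolyl hydroxylases, by 0.41 on the log2 scale (edgeR adjusted p = 4.01e-04), EPAS1 by 0.39 and RUVBL2, an AAA ATPase, by 0.36 (edgeR adjusted p = 1.79e-06). SIAH2 lay below the lowest control in 15 and RUVBL2 in 18 KO libraries. At least 15 did so in 7.14% of all genes tested.

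**Figure D5:**
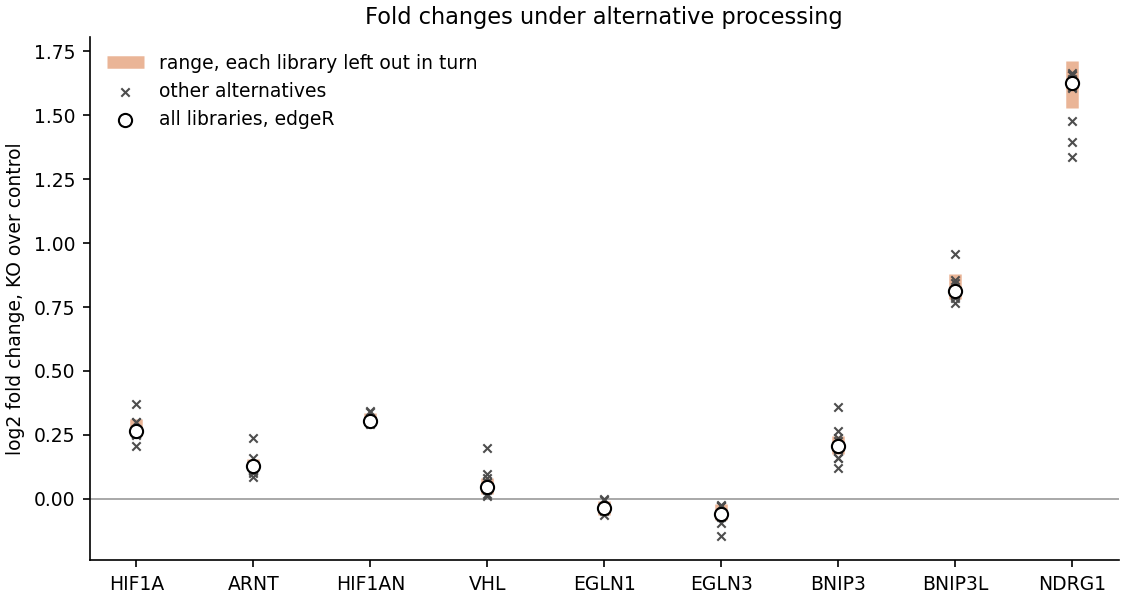
Log2 fold change of KO over control for each member; the open point is the edgeR value over all 37 libraries, crosses are other processing alternatives, and the bar is the range with each library left out in turn. BNIP3L stays above 0.5 in all 12 alternatives and NDRG1 in the 10 that tested it, and the bars of VHL, EGLN1 and EGLN3 lie between -0.08 and 0.08.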

How the data were processed

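The authors mapped SCRB-seq reads to hg38 with STAR (2.6.0a in the submitters' processing notes) and obtained UMI counts with zUMIs on the Ensembl GRCh38.84 annotation; the zUMIs version is not given in the sources used here. The deposited values are raw UMI counts of 32055 genes. Symbols and positions came from GENCODE release 44 on GRCh38, a later annotation, which paired 31323 identifiers. Columns were matched to samples by barcode.

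KO and control libraries were compared with edgeR 4.0.16 under R 4.3.3 (filterByExpr defaults, TMM, robust quasi-likelihood fit, group as the only term). The alternatives were limma-voom without and with quality weights (limma 3.58.1; limma is the package the study names), DESeq2 1.42.0, other scalings and filters, 7 surrogate variables (sva 3.50.0), a term for barcode class, AT-rich barcodes alone, thinning to 563235 UMIs, and leaving out the shallowest or each library. The fits were tested on simulated counts, drawn independently for each library. That simulation held no library sets, so it does not check the p-values against them. All 380 pairs of same-group libraries differed by more than sampling noise (smallest chi-square over degrees of freedom 1.14). Library sets came from average linkage on correlations of deviations from the group mean, at a distance of 0.6, chosen after the data were seen.

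Members and lists were chosen with earlier results of these data known. Of the hypoxia response list 1 called gene enters the counts but is not reported here or plotted. Named genes are the members, the paralogs, called list genes, and the 3 largest further rises and falls per list.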

Additional observations from a re-analysis of the deposited data

How the results depend on the processing

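With every library thinned to the smallest total, 2 of 8 tested members passed in edgeR instead of 4 of 9. In the HIF machinery list 5 of 22 genes passed instead of 9 of 23, and in the hypoxia response list 7 of 26 instead of 16 of 35. The 33.8% of all genes belongs to the fit without thinning, and the share in the thinned fit is not given here. Fewer counts and fewer tested genes follow from the thinning itself. NDRG1, STC2 and ANGPTL4 were tested neither there nor with a minimum mean of 10 CPM. In all other alternatives these counts and that of the mitophagy list stayed within 1.5 times. When thinned, SIAH2 (-0.32, edgeR adjusted p = 0.104), YEATS2 (0.19, edgeR adjusted p = 0.409), CALCOCO2 (-0.23, edgeR adjusted p = 0.123) and PHB2 (-0.15, edgeR adjusted p = 0.0740) did not pass. Nor did BHLHE40, KLF10, KDM3A, FAM162A and MUL1. BHLHE40 also did not pass with library size alone (-0.32, edgeR adjusted p = 0.0510) or without a filter on low counts (-0.37, edgeR adjusted p = 0.0578). The sign changed for NDRG3 with surrogate variables (0.0136), and for the readthrough row RAB4B-EGLN2 among AT-rich barcodes (-0.0055) and without the control library ATATAG or TCTGCA (-0.0045 and -0.0013; range over all left-out libraries -0.0045 to 0.0469); the cause was not tested. Scaling by library size alone brought ARNT past the threshold (0.16, edgeR adjusted p = 0.0393). No paired analysis was possible because the labels give no replicate numbers. Low counts limit STC2, NDRG1 and ANGPTL4, whose lowest libraries held 1, 2 and 2 UMIs.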

Other observations

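VHL works in a complex with elongins B and C, cullin-2 and RBX1, and these partners, named here after their values were seen, had lower mean levels in KO, whereas the log2 fold change of VHL was 0.05. ELOB fell by 0.34 on the log2 scale (SE 0.05, edgeR adjusted p = 1.76e-07), the control mean being 9.39 ± 0.14 (SD, n = 11) and the KO mean 9.06 ± 0.12 log2 CPM (SD, n = 26), and 22 KO libraries lay below the lowest control. At least 15 did so in 7.14% of all genes tested. ELOC fell by 0.25 (edgeR adjusted p = 0.0302), and passed in 34 of the 37 comparisons that left out 1 library, but not without the control library AAAGTT (-0.23, edgeR adjusted p = 0.0621), without ATATAG (-0.22, edgeR adjusted p = 0.0673) or without GGGATT (-0.24, edgeR adjusted p = 0.0519). CUL2 fell by 0.13 (edgeR adjusted p = 0.0446) and passed in 13 of those 37. In the 12 processing alternatives, some of which used fewer libraries, CUL2 did not pass in 9 and ELOC did not in 5. RBX1 had a log2 fold change of -0.11 and did not pass (edgeR adjusted p = 0.0702).

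Among the NDRG family, NDRG2 also rose, by 0.45 on the log2 scale (SE 0.09, edgeR adjusted p = 8.43e-05), the control mean being 4.66 ± 0.16 (SD, n = 11) and the KO mean 5.09 ± 0.26 log2 CPM (SD, n = 26). NDRG3 had a log2 fold change of -0.08 (edgeR adjusted p = 0.616), and NDRG4 was under the count filter at 1 to 10 UMIs per library. EGLN2 had no row of its own. The annotated readthrough gene RAB4B-EGLN2, also named after its values were seen, held 83 to 598 UMIs in the control and 121 to 619 in the KO libraries, with a log2 fold change of 0.01 (edgeR adjusted p = 0.874). Whether the 3′ counts of this row came from readthrough or from EGLN2 transcripts was not tested.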
